A study of Mus musculus with 18 samples.

Results

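Collagens and laminins are the main structural proteins of the extracellular matrix, and the 45 genes described here are 38 collagen genes and 7 laminin genes among 16358 genes measured in sorted cells of the mouse intestinal crypt. Within this family, members were taken by symbol alone. They are every gene of the probe table named Col, a number, a and a number, or Lama, Lamb or Lamc and a digit. The family was chosen with earlier results of these data known. That choice also named Col4a2 and Col15a1 as genes whose probe sets were to be shown. The study sorted 3 populations from each of 6 female Cyp1a1-H2B-YFP mice, in which a promoter induced by βNF (beta-naphthoflavone, a ligand of the aryl hydrocarbon receptor) drives a histone fused to YFP. Cells that do not divide keep the fusion protein. All cells came from epithelial preparations made 10 days after induction, from mice 99 to 109 days old that all carried the transgene and had all been induced, and every sorted cell was positive for CD24. The YFP-LRC group was negative for the lectin UEA and kept YFP, the Paneth group was positive for UEA, and the LCC group was negative for UEA and YFP. Each population of each mouse gave 30000 cells and 1 array (Affymetrix Mouse Exon 1.0 ST), hence 6 arrays per population and 18 in all. Per the design text the arrays were meant to find markers of each population. Values are log2 RMA values as deposited, and the value of a gene on an array is the median over its probe sets (the small groups of probes, each usually within 1 exon). Collagen and laminin genes had 2168 probe sets, from 2 (Col10a1) to 119 (Col7a1) per gene, with a median of 50.

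A laminin is a trimer of 1 α, 1 β and 1 γ chain that polymerises on the surface of epithelial cells and starts the basement membrane. Type IV collagen then forms the network that stabilises the sheet, types XV and XVIII sit at its edge, type VII anchors it to the tissue beneath, and type XVII ties it to hemidesmosomes. Fibrillar collagens (types I, II, III, V, XI, XXIV and XXVII), beaded type VI and the fibril-associated types IX, XII, XIV, XVI, XIX and XX belong to the connective tissue, where fibroblasts and related mesenchymal cells make most of them. In the gut, mesenchymal and epithelial cells each contribute chains to the basement membrane below the crypt. The 7 laminin genes measured were Lama1, Lama2, Lama4, Lamb1, Lamb3, Lamc1 and Lamc3. Lama3, Lama5, Lamb2, Col22a1, Col28a1, Col6a4 and Col6a5 were not analysed here, so the values below do not cover the α chains of the main epithelial laminins.

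Few of these genes differed between the populations. Lamb1, the β1 chain shared by several laminins, was higher in both YFP-LRC and Paneth arrays than in LCC arrays. Col15a1 was higher in Paneth than in LCC arrays, Col6a1 was lower in Paneth than in LCC arrays, and Col4a1 was lower in YFP-LRC than in LCC arrays. No member passed the test between YFP-LRC and Paneth. Most of the other collagen genes lay slightly below LCC in both other populations without passing the test, fibrillar and basement membrane types alike. In bulk samples of this kind, fewer cells of a type and less RNA per cell cannot be told apart.

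Calls rest on limma, fitted to all 16358 genes, with an adjusted p below 0.05. In YFP-LRC against LCC, 2 of 45 members were called, 1 higher and 1 lower, and the share called over all genes was 7.24%, with 6.33% higher and 0.917% lower. In YFP-LRC against Paneth, limma called 0 of 45 members, with 1 at an unadjusted p under 0.05 (Col15a1), while 0.355% of all genes were called. In Paneth against LCC, 3 of 45 members were called, 2 higher and 1 lower, beside 14.5% of all genes, 12% higher and 2.53% lower. Set beside these shares, the counts do not single out the members as a set. The 2 comparisons against LCC share the LCC arrays, so that their values are given side by side and are not independent of each other.

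**Figure D1:**
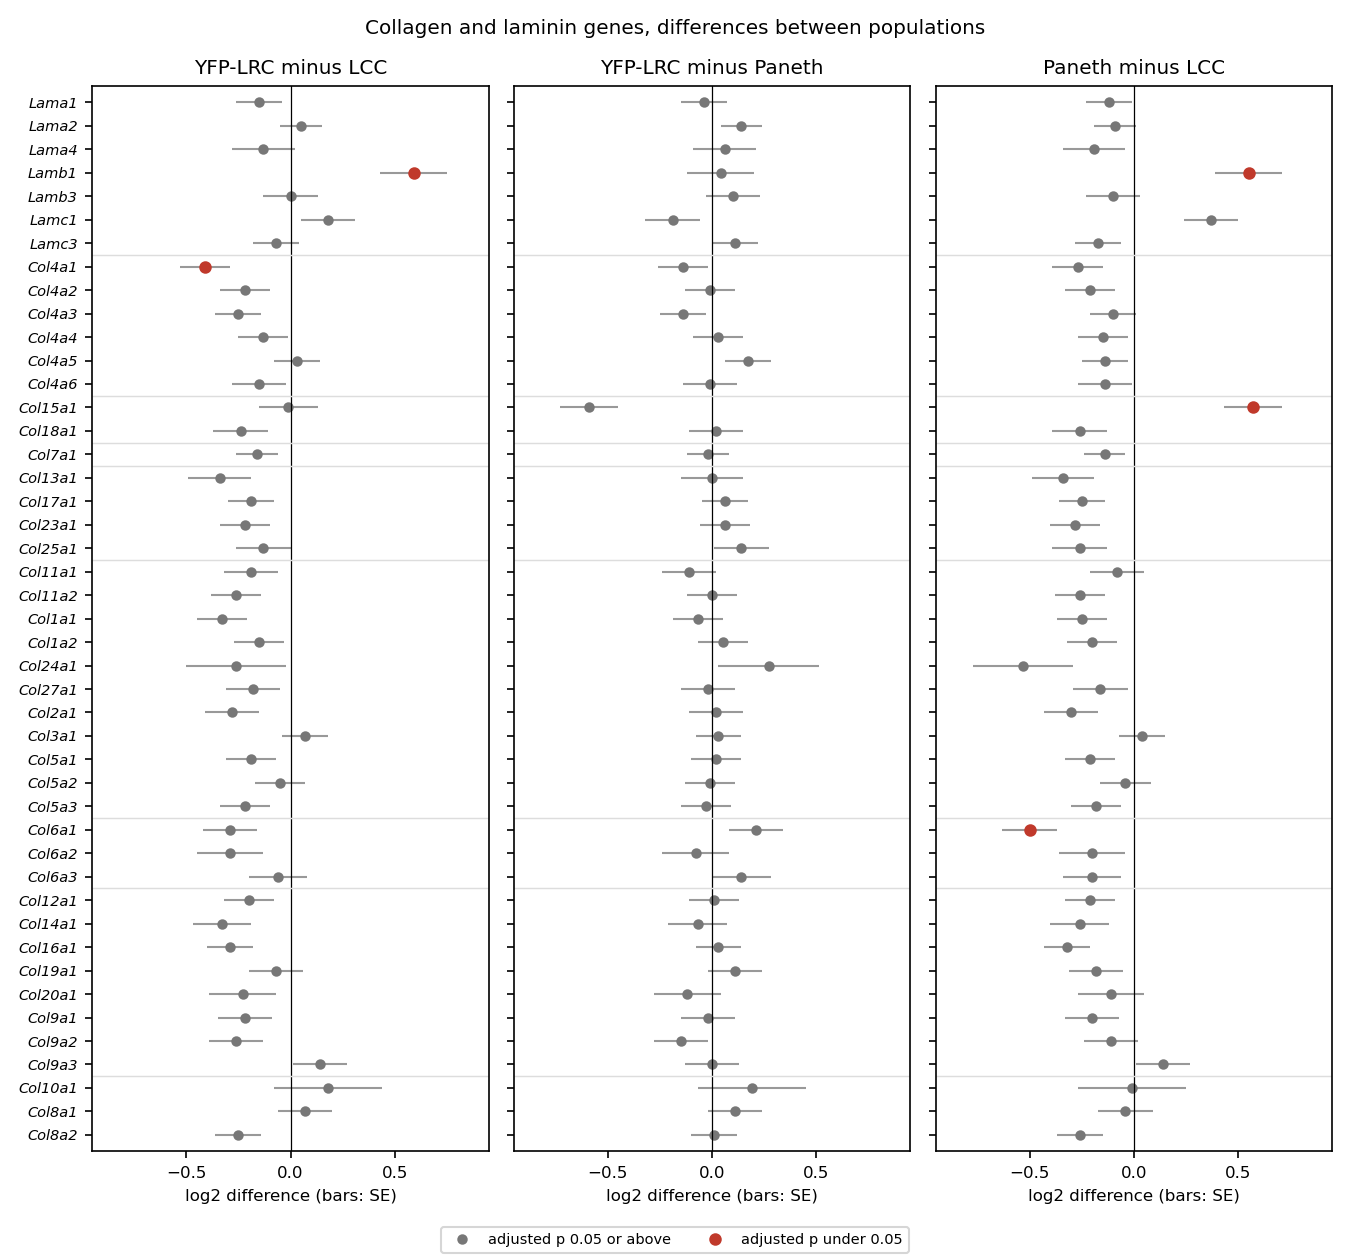
Difference of each collagen and laminin gene between populations on the log2 scale (x axis; bars are standard errors from limma, n = 6 arrays per population), grouped by class from laminins at the top to short network collagens at the bottom. Red points passed an adjusted p under 0.05: Lamb1 and Col4a1 in YFP-LRC minus LCC, and Lamb1, Col15a1 and Col6a1 in Paneth minus LCC.

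LCC arrays 2, 3, 5 and 6 stood apart from the rest. They had median correlations with the other arrays of 0.788 to 0.838, against at least 0.883 for every other array, and their probe sets lay 0.431 to 0.557 from the median over arrays, the widest spread of the 18. The median probe set was 6.65 to 6.73 on YFP-LRC, 6.63 to 6.77 on Paneth and 6.40 to 6.66 on LCC arrays. When LCC was represented by arrays 1 and 4 alone, limma called 0 members in all 3 comparisons; over all genes it then called 1 higher and 3 lower in YFP-LRC against LCC, and 141 higher and 15 lower in Paneth against LCC. Values from that subset stand beside the called members below. With all 18 arrays and the spread of the array as a covariate, limma called 0 of all genes in YFP-LRC against LCC. In Paneth against LCC it then called 369 genes higher and 83 lower, with 2 members among the higher ones. The spread differs between LCC and the other populations, so that fit cannot tell the spread from the population. As a check of the label, the median over 8 epithelial genes (such as Epcam, Cdh1 and Krt18) was 10.21 to 10.62 on YFP-LRC, 10.24 to 10.78 on Paneth and 9.61 to 10.51 on LCC arrays. For 12 fibroblast genes it was 5.48 to 5.95, 5.56 to 5.83 and 5.62 to 6.10 on the same 3 sets of arrays. Values of different genes rest on different probes, so that these levels cannot be set against each other and do not by themselves show how pure the sorted cells were.

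The start regions of 3 of the 4 called genes are shown so that the loci can be found and searched. Each line gives the 250 bases before the RefSeq start in assembly GRCm38.p6, 5′ to 3′ on the strand of the gene, in lower case with motif matches in capitals. Lamb1 lies on the plus strand at chr12:31265043-31265292, Col15a1 on the plus strand at chr4:47207762-47208011 and Col6a1 on the minus strand at chr10:76726045-76726294.
Lamb1: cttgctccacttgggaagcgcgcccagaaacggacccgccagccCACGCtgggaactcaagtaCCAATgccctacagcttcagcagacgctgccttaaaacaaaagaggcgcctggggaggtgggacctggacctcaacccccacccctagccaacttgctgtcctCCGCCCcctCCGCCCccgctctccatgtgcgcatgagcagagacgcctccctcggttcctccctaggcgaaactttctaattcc
Col15a1: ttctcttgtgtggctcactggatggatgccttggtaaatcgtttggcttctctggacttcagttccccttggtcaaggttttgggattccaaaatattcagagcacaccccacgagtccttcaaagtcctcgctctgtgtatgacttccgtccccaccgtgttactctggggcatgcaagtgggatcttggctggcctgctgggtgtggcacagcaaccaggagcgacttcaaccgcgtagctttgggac
Col6a1: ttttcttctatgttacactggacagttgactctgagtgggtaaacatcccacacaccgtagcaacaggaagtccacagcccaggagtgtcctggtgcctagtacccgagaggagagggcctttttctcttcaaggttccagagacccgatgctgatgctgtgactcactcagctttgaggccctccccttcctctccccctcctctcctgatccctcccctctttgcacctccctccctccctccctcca
Short motifs were searched on both strands: the GC box GGGCGG, the TATA box TATAAA, the CCAAT box CCAAT, the TCF/LEF core ATCAAAG and the aryl hydrocarbon receptor core GCGTG. Lamb1 held 2 GC boxes, 1 CCAAT box and 1 aryl hydrocarbon receptor core, all without overlap. The Col15a1 and Col6a1 windows held none of them. Of 32851 RefSeq windows of the same length, 32.7% held a GC box, 12.4% a TATA box, 33.8% a CCAAT box, 3.21% a TCF/LEF core and 28.2% an aryl hydrocarbon receptor core. A match describes letters and is no evidence of binding.

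Lamb1 was the laminin gene with the clearest difference. Its value was 6.71 at the lowest, 6.96 at the median and 7.21 at the highest of the YFP-LRC arrays, 6.48, 6.90 and 7.32 on the Paneth arrays, and 6.05, 6.37 and 6.64 on the LCC arrays. All 6 YFP-LRC arrays lay above all 6 LCC arrays, and 5 Paneth arrays did, while YFP-LRC and Paneth overlapped throughout. Within mice, YFP-LRC was above LCC in 6 of 6 and Paneth was above LCC in 6 of 6. The difference was 0.59 ± 0.16 for YFP-LRC minus LCC (1.5-fold, limma adjusted p = 0.0326) and 0.55 ± 0.16 for Paneth minus LCC (1.46-fold, limma adjusted p = 0.0251), where errors of differences are standard errors. YFP-LRC minus Paneth was 0.04 ± 0.16 (limma adjusted p = 0.995). When LCC 1 and 4 alone stood for LCC, the Lamb1 differences were 0.73 and 0.69 (limma adjusted p = 0.358 and 0.202). The YFP-LRC call ended in 4 of 18 fits that left out 1 array (YFP-LRC 2, YFP-LRC 4, LCC 2 or LCC 3; adjusted p up to 0.0693), and the Paneth call in 3 of 18 (Paneth 5, Paneth 6 or LCC 3; adjusted p up to 0.0654). Each also ended in 5 of 6 fits that left out a mouse, all but mouse 1 (adjusted p up to 0.117 and 0.0893).

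The Lamb1 signal came from part of its 35 probe sets. In YFP-LRC against LCC, 7 probe sets were called higher, by 1.5 to 2.36, and none lower. Against LCC, 6 were called higher in Paneth, by 1.09 to 2.54. Probe set 5557577 averaged 8.55 on YFP-LRC, 8.31 on Paneth and 6.55 on LCC arrays, and the YFP-LRC minus LCC difference was 2.0 ± 0.34 (limma adjusted p = 0.00783 over all 209279 probe sets). Over the 35 probe sets, differences from LCC ran from -0.57 to 2.36 in YFP-LRC and from -0.59 to 2.54 in Paneth, with 27 and 25 of them above 0. Under 10 alternative settings, 5557577 stayed called in 9 in each comparison against LCC, while the least stable of the called probe sets (5167333 in YFP-LRC, 4595995 in Paneth) stayed called in 1. The value of the gene, a median over all 35, was thus smaller than the differences of the probe sets called.

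Lamc1, the γ1 chain that pairs with β1 in many laminins, did not pass the test as a gene. Its value was 6.52, 6.76 and 6.94 (lowest, median, highest) on YFP-LRC arrays, 6.65, 6.97 and 7.08 on Paneth arrays, and 6.22, 6.69 and 6.86 on LCC arrays. The 3 groups overlapped, with 5 Paneth arrays above the highest LCC array. YFP-LRC minus LCC was 0.18 ± 0.13 (limma adjusted p = 0.430) and Paneth minus LCC was 0.37 ± 0.13 (limma adjusted p = 0.0740). Single probe sets of Lamc1 did pass. In YFP-LRC against LCC 4 of 29 were called higher, by 1.1 to 1.98, and in Paneth against LCC 3 were, by 1.19 to 1.67. Probe set 5206428 averaged 8.59 on YFP-LRC, 8.28 on Paneth and 6.61 on LCC arrays, with a YFP-LRC minus LCC difference of 1.98 ± 0.33 (limma adjusted p = 0.00695) and a Paneth minus LCC difference of 1.67 ± 0.33 (limma adjusted p = 0.00723). Under 10 alternative settings 5206428 stayed called in 9 in each comparison, and the other called probe sets of Lamc1 in 1 to 4 in YFP-LRC against LCC and in 5 in Paneth against LCC. Taken over brighter probe sets alone, the Lamc1 differences from LCC were 0.52 in YFP-LRC (limma adjusted p = 0.0438) and 0.51 in Paneth (limma adjusted p = 0.0343), so that its call depends on which probe sets are used.

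The other laminin chains were not called in any comparison. Lama1, the α1 chain, averaged 6.04 ± 0.11 on YFP-LRC, 6.08 ± 0.17 on Paneth and 6.19 ± 0.11 on LCC arrays (SD, n = 6 each). Lama2, the α2 chain known from muscle and from mesenchyme around the crypt base, averaged 5.27 ± 0.09, 5.14 ± 0.15 and 5.22 ± 0.05 on the same sets of arrays. Lama4, the α4 chain of blood vessels, averaged 5.14 ± 0.13 on YFP-LRC, 5.07 ± 0.31 on Paneth and 5.26 ± 0.24 on LCC arrays. Lamb3, the β3 chain of the epithelial laminin of hemidesmosomes, averaged 6.59 ± 0.16, 6.49 ± 0.17 and 6.59 ± 0.22. For these 4 genes and Lamc3, differences between populations ran from -0.19 to 0.14 and were within 2 standard errors of 0. The 7 laminin genes had a median difference of 0.00 in YFP-LRC minus LCC, against 0.04 over all genes, and of -0.10 in Paneth minus LCC, against 0.03.

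**Figure D2:**
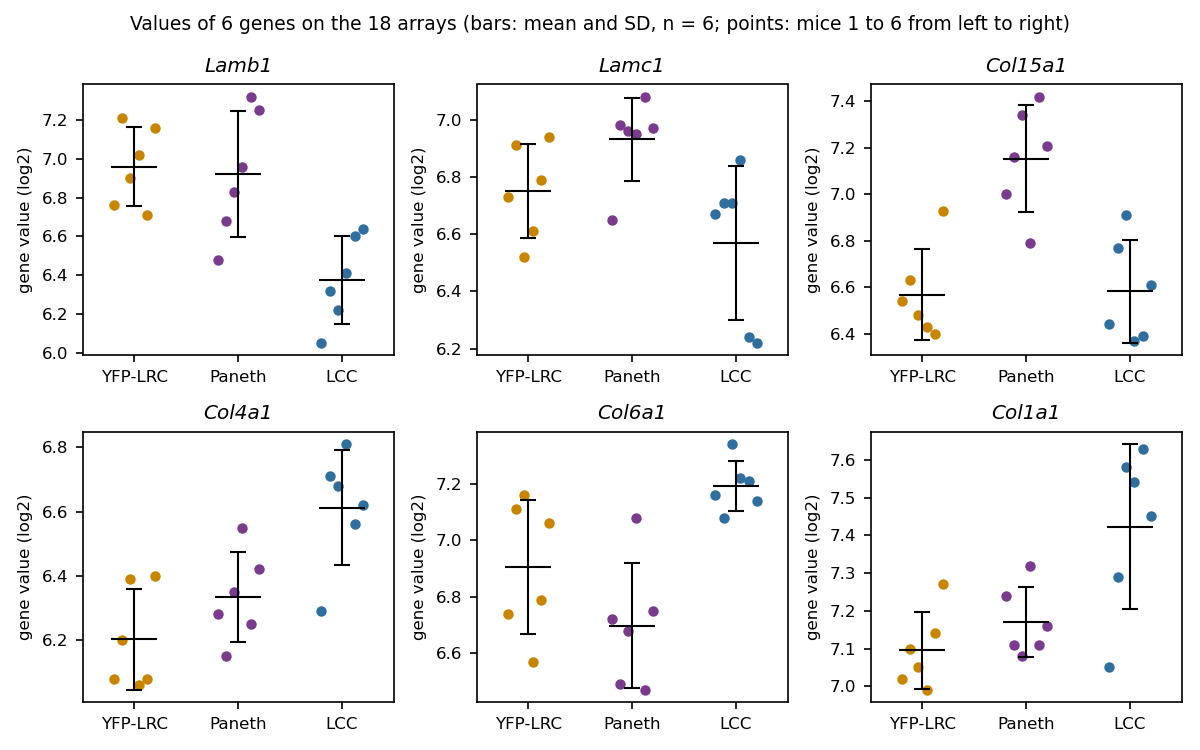
Values of Lamb1, Lamc1, Col15a1, Col4a1, Col6a1 and Col1a1 on each array (y axis, log2; points are mice 1 to 6 from left to right, bars the mean and SD, n = 6). Lamb1 is high in YFP-LRC and Paneth, Col15a1 is high in Paneth alone, and Col4a1 and Col6a1 are highest in LCC; the y axes do not start at 0 and differ between panels.

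Type IV collagen genes lay below LCC in both other populations, except Col4a5 in YFP-LRC. Col4a1, which with Col4a2 makes the ubiquitous α1α1α2 network, had values of 6.06, 6.14 and 6.40 (lowest, median, highest) on YFP-LRC arrays, 6.15, 6.32 and 6.55 on Paneth arrays, and 6.29, 6.65 and 6.81 on LCC arrays. The lowest LCC array, of mouse 1, fell inside the range of the other 2 populations, and the other 5 LCC arrays lay above all YFP-LRC and Paneth arrays. YFP-LRC was below LCC in 6 of 6 mice, by 0.41 ± 0.12 (fold 0.753, limma adjusted p = 0.0449). Paneth minus LCC was -0.27 ± 0.12 (limma adjusted p = 0.131) and YFP-LRC minus Paneth was -0.14 ± 0.12 (limma adjusted p = 0.994). The Col4a1 call was close to the threshold. It ended in 14 of 18 fits that left out 1 array (adjusted p up to 0.102), all but those without YFP-LRC 3, YFP-LRC 6, Paneth 4 or LCC 1, and in 5 of 6 that left out a mouse (all but mouse 1, up to 0.147). The difference was -0.35 with LCC 1 and 4 alone (limma adjusted p = 0.621) and -0.16 over brighter probe sets (limma adjusted p = 0.367). No single probe set of Col4a1 was called among 67.

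Col4a2 shared the direction of Col4a1 without a call. Its values were 6.35, 6.76 and 7.01 on YFP-LRC arrays, 6.61, 6.75 and 6.90 on Paneth arrays, and 6.72, 6.98 and 7.12 on LCC arrays, again as lowest, median and highest. YFP-LRC minus LCC was -0.22 ± 0.12 (limma adjusted p = 0.274), Paneth minus LCC was -0.21 ± 0.12 (limma adjusted p = 0.251) and YFP-LRC minus Paneth was -0.01 ± 0.12 (limma adjusted p = 0.999). Col4a3 to Col4a6, chains of more restricted networks, had differences of -0.25 to 0.03 in YFP-LRC minus LCC and of -0.15 to -0.10 in Paneth minus LCC, none called.

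Most of the 54 probe sets of Col4a2 lay below LCC, 41 in YFP-LRC and 42 in Paneth, but some went the other way. Set against LCC, 1 of 54 in Paneth was called higher and 3 lower. Over all probe sets, 4.9% were called higher and 1.45% lower in that comparison. Probe set 4682963 averaged 7.58 ± 0.19 on YFP-LRC, 7.39 ± 0.31 on Paneth and 8.33 ± 0.26 on LCC arrays (SD, n = 6 each), and all 6 LCC arrays lay above all 12 others. Its differences were -0.75 ± 0.18 in YFP-LRC minus LCC (limma adjusted p = 0.0363) and -0.94 ± 0.18 in Paneth minus LCC (limma adjusted p = 0.00672). Probe set 4934554 went the other way, with means of 4.57 on YFP-LRC, 5.14 on Paneth and 3.55 on LCC arrays and a Paneth minus LCC difference of 1.59 ± 0.37 (limma adjusted p = 0.0162). This probe set was dim, with LCC arrays at 2 to 4.53, where the lowest value of any probe set was 1.41. Of 10 alternative settings, 4682963 stayed called in 4 in YFP-LRC against LCC and in 9 in Paneth against LCC, and 4934554 in 6.

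Of the 54 probe sets of Col4a2, 4381932 had the largest difference between YFP-LRC and Paneth, where the gene differed by -0.01. It was also the brightest of them in each population. It lay at 10.69, 11.36 and 11.84 (lowest, median, highest) on YFP-LRC arrays, at 8.59, 10.07 and 10.37 on Paneth arrays and at 10.13, 10.74 and 11.32 on LCC arrays. Every YFP-LRC array lay above every Paneth array. The difference between YFP-LRC and Paneth, 1.54 ± 0.30, did not pass over all 209279 probe sets (limma adjusted p = 0.0828). A test of whether 1 probe set departs from the others of its gene (diffSplice, with a Simes p per gene) did call Col4a2 in YFP-LRC against Paneth (adjusted p = 7.43e-07). That test treats probe sets on 1 array as independent.

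**Figure D3:**
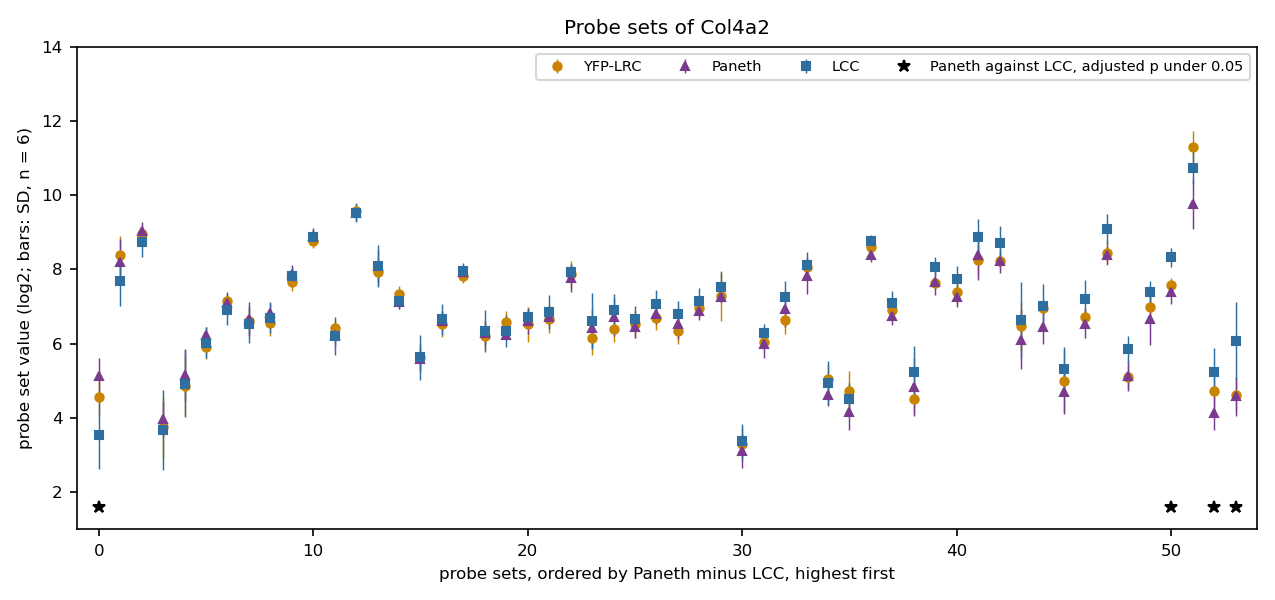
The 54 probe sets of Col4a2 (x axis, ordered by Paneth minus LCC) with their log2 value in each population (y axis; mean and SD, n = 6); stars mark an adjusted p under 0.05 in Paneth against LCC. Most probe sets lie close together in the 3 populations, and the called ones stand at both ends of the order.

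Col15a1, a collagen of the basement membrane zone best known from vessels and muscle, was high in Paneth arrays. Its values were 6.40, 6.51 and 6.93 on YFP-LRC arrays, 6.79, 7.18 and 7.42 on Paneth arrays, and 6.37, 6.52 and 6.91 on LCC arrays (lowest, median, highest). Of the 6 Paneth arrays, 5 lay above every other array, and the lowest overlapped with the highest YFP-LRC and LCC arrays. Paneth was above LCC in 6 of 6 mice, by 0.57 ± 0.14 (1.49-fold, limma adjusted p = 0.0114), and YFP-LRC was below Paneth in 6 of 6 mice. YFP-LRC minus Paneth was -0.59 ± 0.14 (limma adjusted p = 0.103) and YFP-LRC minus LCC was -0.01 ± 0.14 (limma adjusted p = 0.965). When LCC 1 and 4 alone stood for LCC, Paneth minus LCC was 0.75 (limma adjusted p = 0.0752), without mouse 5 it was 0.48 (adjusted p = 0.0777), and over brighter probe sets it was 0.26 (adjusted p = 0.149). As a mean over probe sets, YFP-LRC minus Paneth was -0.49 and was called (limma adjusted p = 0.0353).

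The difference lay in a minority of the 45 probe sets of Col15a1, and there it was large. Probe set 5168820 had values of 5.44, 8.25 and 9.69 (lowest, median, highest) on YFP-LRC arrays, 8.24, 9.91 and 11.55 on Paneth arrays and 3.85, 4.74 and 5.98 on LCC arrays. Paneth was above LCC on every array, and 5 of 6 YFP-LRC arrays were above the highest LCC array, the lowest being that of mouse 1. The differences were 3.06 ± 0.65 for YFP-LRC minus LCC (limma adjusted p = 0.0209) and 5.18 ± 0.65 for Paneth minus LCC (limma adjusted p = 0.000374). This was the 1 probe set of Col15a1 called in YFP-LRC against LCC, and it stayed called there in 6 of 10 alternative settings and in Paneth against LCC in 10 of 10.

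Probe set 4491382 separated Paneth from both other populations. It lay at 4.86, 5.68 and 6.43 on YFP-LRC arrays, at 7.73, 8.64 and 9.64 on Paneth arrays and at 3.78, 4.74 and 5.82 on LCC arrays, without overlap of Paneth with either. Paneth minus LCC was 3.86 ± 0.37 (limma adjusted p = 3.77e-05) and YFP-LRC minus Paneth was -2.91 ± 0.37 (limma adjusted p = 0.00203). Both differences stayed called under all 10 alternative settings, LCC arrays 1 and 4 alone and each mouse left out included (adjusted p up to 0.00502 and 0.0449). It was the only probe set of all 45 members called between YFP-LRC and Paneth, where 0.0483% of all probe sets were called.

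Another 5 probe sets of Col15a1 (5594469, 5443794, 4435826, 5535384 and 5270245) were called higher in Paneth than in LCC, by 1.27 to 1.86, and none was called lower; each stayed called in 5 to 9 of 10 alternative settings. YFP-LRC means of these 5 lay within 0.29 of the LCC means. Over the whole gene, Paneth minus LCC ran from -0.76 to 5.18, with 25 probe sets above 0 and 20 below. The departure test called Col15a1 in all 3 comparisons (Simes adjusted p = 2.63e-19 in YFP-LRC against LCC, 3.25e-05 in YFP-LRC against Paneth and 6.72e-44 in Paneth against LCC). The test treats probe sets on 1 array as independent. The exons of these probe sets were not located here.

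**Figure D4:**
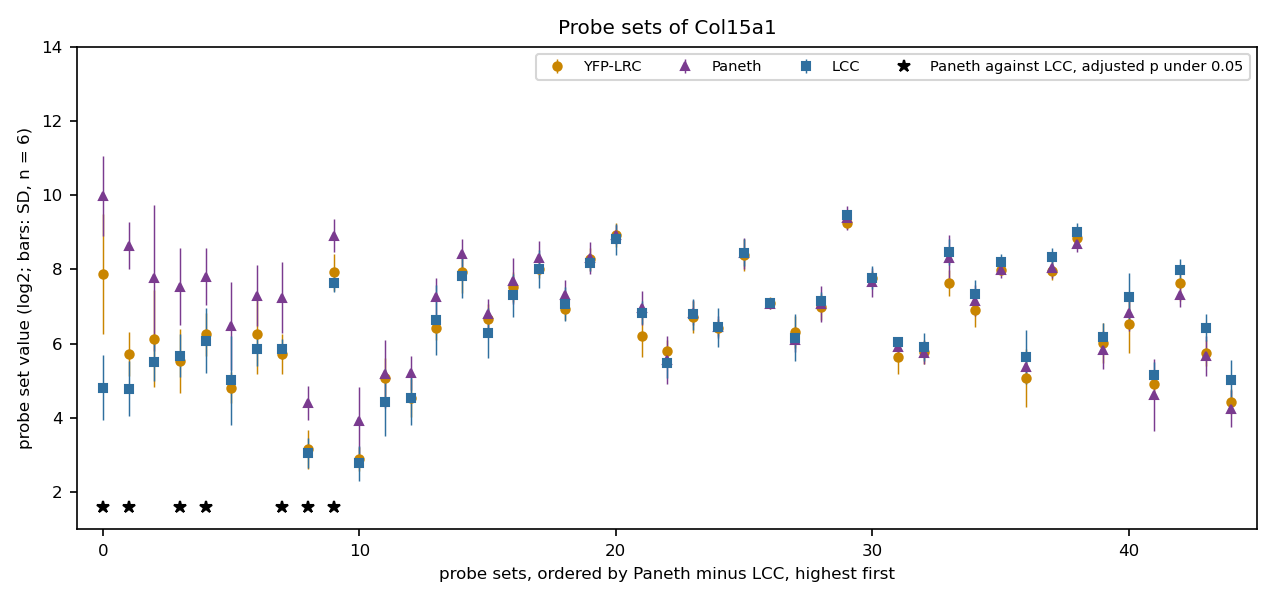
The 45 probe sets of Col15a1 (x axis, ordered by Paneth minus LCC) with their log2 value in each population (y axis; mean and SD, n = 6); stars mark the 7 with an adjusted p under 0.05 in Paneth against LCC. Paneth points stand above LCC points on the left of the plot, by up to 5.18, and the populations lie close together over most of the rest.

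Markers of several cell types differed between the same populations as Col15a1. Of 8 Paneth cell genes, 6 were called higher in Paneth than in LCC (median difference 1.92), all 8 were negative in YFP-LRC minus Paneth (median -0.88) with 2 of them called, and 4 were called higher in YFP-LRC than in LCC. All 7 measured tuft cell genes (such as Dclk1, Trpm5 and Pou2f3) were called higher in Paneth than in LCC, and their median ran from 7.72 to 8.55 on YFP-LRC, from 8.12 to 8.99 on Paneth and from 7.29 to 7.91 on LCC arrays. In YFP-LRC against Paneth, 3 of the 7 were called lower. Enteroendocrine genes went the other way. Of 8, 4 were called higher in YFP-LRC than in Paneth (median 1.04) and 4 lower in Paneth than in LCC (median -0.73). Fn1, fibronectin, listed here with fibroblasts, averaged 5.78 ± 0.19 on YFP-LRC, 6.89 ± 0.51 on Paneth and 6.07 ± 0.15 on LCC arrays, and was called higher in Paneth than in LCC (0.83 ± 0.19, limma adjusted p = 0.00712) and lower in YFP-LRC than in Paneth (-1.11 ± 0.19, limma adjusted p = 0.00578). Ptprc, the leukocyte antigen CD45, averaged 5.69 ± 0.34 on YFP-LRC, 7.68 ± 0.39 on Paneth and 6.35 ± 0.46 on LCC arrays, and was called in the same directions (limma adjusted p = 0.000104 in YFP-LRC against Paneth and 0.000745 in Paneth against LCC). The rest of the 8 leukocyte genes did not follow Ptprc: 6 of 8 were negative in Paneth minus LCC, with a median of -0.44 and 3 called lower. Of 7 goblet cell genes, 3 were called higher in Paneth than in LCC and 0 in YFP-LRC against Paneth, with 0 at an unadjusted p under 0.05 by limma. The other 11 fibroblast genes were not called in any comparison. As a list they did not follow Fn1: 8 of 12 were negative in Paneth minus LCC, with a median of -0.25, against 0.03 over all genes. For 9 endothelial genes the median was 5.54 to 5.90 on YFP-LRC, 5.46 to 5.90 on Paneth and 5.51 to 5.97 on LCC arrays, and in Paneth against LCC Esam was called higher and Emcn lower. The part of these cells in the Col15a1 difference was not tested.

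Col18a1, the other multiplexin and the source of endostatin, went with the majority instead. It averaged 6.69 ± 0.12 on YFP-LRC, 6.66 ± 0.18 on Paneth and 6.92 ± 0.26 on LCC arrays (SD, n = 6 each). The difference was -0.24 ± 0.13 in YFP-LRC minus LCC (limma adjusted p = 0.278) and -0.26 ± 0.13 in Paneth minus LCC (limma adjusted p = 0.192).

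Type VI collagen, which forms beaded filaments around cells, included the 1 member called lower in Paneth than in LCC. Col6a1 lay at 6.57, 6.93 and 7.16 on YFP-LRC arrays, at 6.47, 6.70 and 7.08 on Paneth arrays and at 7.08, 7.19 and 7.34 on LCC arrays (lowest, median, highest). Each Paneth array lay at or below the lowest LCC array, while 2 YFP-LRC arrays lay inside the LCC range. Paneth was below LCC in 6 of 6 mice and fell by 0.50 ± 0.13 (fold 0.709, limma adjusted p = 0.0178). YFP-LRC minus LCC was -0.29 ± 0.13 (limma adjusted p = 0.185). Of the 34 probe sets of Col6a1, 5 were called lower in Paneth than in LCC and 3 in YFP-LRC than in LCC, the strongest being 4460989 (Paneth minus LCC -1.63 ± 0.32, limma adjusted p = 0.00638, called in 9 of 10 alternative settings against 3 to 5 for the other 4). Paneth minus LCC for the gene was -0.49 with LCC 1 and 4 alone (limma adjusted p = 0.332), and its call also ended without mouse 2, 3 or 5 (adjusted p up to 0.0896). Col6a2 and Col6a3, the chains it assembles with, were not called, at -0.20 ± 0.16 and -0.20 ± 0.14 in Paneth minus LCC.

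The fibrillar collagens of connective tissue showed no called difference in any of the 3 comparisons. Col1a1 averaged 7.10 ± 0.10 on YFP-LRC, 7.17 ± 0.10 on Paneth and 7.42 ± 0.22 on LCC arrays. Its difference was -0.33 ± 0.12 in YFP-LRC minus LCC (limma adjusted p = 0.0914) and -0.25 ± 0.12 in Paneth minus LCC (limma adjusted p = 0.151). Col1a2, the partner chain, averaged 6.80 ± 0.22, 6.75 ± 0.14 and 6.95 ± 0.09 on the same sets. Col3a1, of elastic connective tissue, went the other way by a small amount, at 6.30 ± 0.16 on YFP-LRC, 6.27 ± 0.07 on Paneth and 6.23 ± 0.10 on LCC arrays. Col24a1, with 5 probe sets, had the most negative Paneth minus LCC difference of all members, -0.53 ± 0.24 (limma adjusted p = 0.140), over LCC arrays that ran from 4.61 to 6.32.

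Among the remaining classes nothing was called. Col7a1 averaged 7.06 ± 0.10 on YFP-LRC, 7.08 ± 0.10 on Paneth and 7.22 ± 0.09 on LCC arrays, and Col17a1 averaged 6.73 ± 0.14, 6.67 ± 0.11 and 6.92 ± 0.12. All 4 transmembrane collagens were negative in both comparisons against LCC, with Col13a1 at -0.34 ± 0.15 in each (limma adjusted p = 0.165 for YFP-LRC and 0.128 for Paneth). Of 8 fibril-associated collagens, 7 were negative in each comparison against LCC, led by Col14a1 at -0.33 ± 0.14 in YFP-LRC minus LCC (limma adjusted p = 0.152). Col9a3 was the exception at 0.14 ± 0.13 in both. Col10a1, of growing cartilage, rests on 2 probe sets and stood at 0.18 ± 0.26 in YFP-LRC minus LCC. Between YFP-LRC and Paneth the largest differences other than Col15a1 were Col24a1 (0.27 ± 0.24), Col6a1 (0.21 ± 0.13), Col10a1 (0.19 ± 0.26) and Lamc1 (-0.19 ± 0.13), all with an adjusted p of at least 0.988.

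Small negative differences from LCC prevailed among genes listed as mesenchymal and among those listed as epithelial. Of 45 members, 36 were negative in YFP-LRC minus LCC, with a median of -0.19, and 40 in Paneth minus LCC, with a median of -0.18. In YFP-LRC minus Paneth 19 were negative and the median was 0.01. Over all genes the medians were 0.04 in YFP-LRC minus LCC, 0.00 in YFP-LRC minus Paneth and 0.03 in Paneth minus LCC, and 45.1%, 49.5% and 47.2% of genes were negative. For 15 members listed as mesenchymal (types I, III, VI, XII, XIV and XV, Col5a1, Col5a2, Col4a1, Col4a2, Lama2 and Lama4) the median was -0.19 in YFP-LRC minus LCC and -0.20 in Paneth minus LCC, with 13 negative in each. For 5 members listed as epithelial (Lama1, Lamb3, Col7a1, Col17a1 and Col18a1) it was -0.16 and -0.14, with 4 and 5 negative. The 2 lists come from general knowledge of the gut, and 4 of 9 epithelial genes were not analysed here. Many members are in neither list, among them Lamb1 and Lamc1, which lay above LCC in both comparisons.

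The shift was smaller with fewer LCC arrays, and it was set beside that of all genes at the same level. When LCC 1 and 4 alone stood for LCC, the members' median was -0.10 in YFP-LRC minus LCC (29 negative) and -0.12 in Paneth minus LCC (35 negative), against 0.01 in both over all genes. Over all genes, differences against LCC were more positive at higher mean levels: in 4 bins of equal size, medians were -0.12, -0.03, 0.12 and 0.35 for YFP-LRC and -0.16, -0.07, 0.13 and 0.40 for Paneth. The members showed no such trend, with medians of -0.15, -0.11, -0.19 and -0.24 in YFP-LRC minus LCC and of -0.19, -0.13, -0.21 and -0.11 in Paneth minus LCC over 7, 14, 20 and 4 members. In YFP-LRC minus LCC, 5, 10, 18 and 3 of them were negative, where 68.7%, 55%, 36.1% and 20.5% of all genes in the same bins were. In Paneth minus LCC, 7, 13, 17 and 3 were negative, beside 72.1%, 58.9%, 38.3% and 19.4% of all genes. The members' share of negative values was thus near that of all genes in the lowest bin of YFP-LRC minus LCC and above it in the bins that hold most members, as a description without a test.

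Scaling changed the split of calls. Centring each array on its own median probe set moved the median over all genes to -0.12 in YFP-LRC minus LCC and -0.16 in Paneth minus LCC. After that, 4 members were called lower and 0 higher in YFP-LRC against LCC, beside 3.56% of all genes lower and 3.14% higher. For Paneth against LCC, 15 were called lower and 0 higher, beside 11.5% of all genes lower and 7.24% higher. The 4 were Col1a1, Col4a1, Col4a3 and Col16a1. Lamb1 (0.42 and 0.36) and Col15a1 (0.38 in Paneth minus LCC) kept their sign and lost their calls (limma adjusted p = 0.109, 0.121 and 0.0821).

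**Figure D5:**
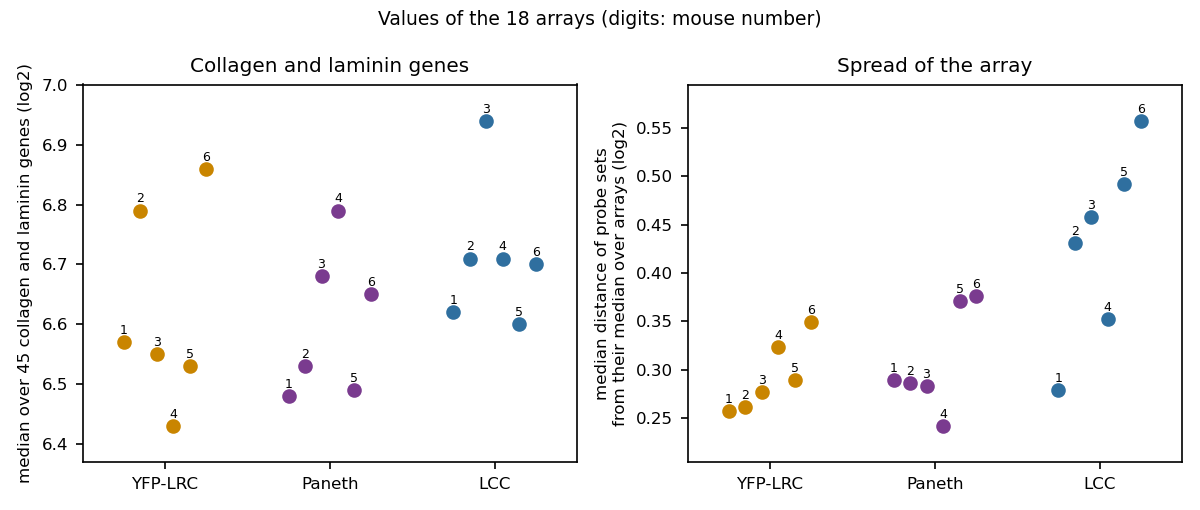
The median over the 45 collagen and laminin genes on each array (left, log2) and the spread of the array (right, the median distance of probe sets from their median over arrays, log2), with digits for the mouse. The members' medians overlap between the populations, and LCC arrays 2, 3, 5 and 6 have the widest spread, 0.431 to 0.557.

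At the level of single probe sets, higher calls sat in few genes. Of 2168 members' probe sets, 13 were called higher in YFP-LRC than in LCC (0.6%, against 2.13% of all probe sets) and 30 lower (1.38%, against 0.503%). The 13 were 7 of Lamb1, 4 of Lamc1, 1 of Col15a1 and 1 of Col11a1. Between Paneth and LCC, 17 were called higher (0.784%, against 4.9%) and 83 lower (3.83%, against 1.45%). The 17 were 7 of Col15a1, 6 of Lamb1, 3 of Lamc1 and 1 of Col4a2. The lower ones were spread over many collagens, with 9 in Col7a1, 6 in Col16a1 and 6 in Col27a1 in Paneth against LCC.

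Departing probe sets were called in a larger share of the members than of all genes tested. The departure test called 22 of 42 members in YFP-LRC against LCC, where it called 24.1% of all genes tested, 3 of 42 in YFP-LRC against Paneth (0.421% of all) and 26 of 42 in Paneth against LCC (31.6% of all). The 3 between YFP-LRC and Paneth were Col4a2, Col15a1 and Col25a1, a transmembrane collagen (Simes adjusted p = 0.00676). Members had a median of 50 probe sets, against 11 over all genes, and the part of that number in the members' share was not tested. With LCC arrays 1 and 4 alone, 3 of 42 members were called in YFP-LRC against LCC, beside 3.78% of all genes, and 5 of 42 in Paneth against LCC, beside 5.21%.

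Few genes that bind, build or cut this matrix were called. Their counts stand beside the 7.24% of all genes called in YFP-LRC against LCC and the 14.5% called in Paneth against LCC, most of them higher, and do not single out these lists. Of 20 matrix receptors, 2 were called higher in YFP-LRC than in LCC: Cd44, a hyaluronan receptor of crypt base cells (0.73 ± 0.20, limma adjusted p = 0.0325), and Itgb6, an integrin chain of epithelia (0.51 ± 0.15, adjusted p = 0.0424). In Paneth against LCC, Itgb1, the integrin chain common to most collagen and laminin receptors, was called higher (0.98 ± 0.27, limma adjusted p = 0.0213) and the collagen receptor Ddr2 lower (-0.55 ± 0.13, adjusted p = 0.0113). Itga6 and Itgb4, the laminin receptor of hemidesmosomes, were not called, at 0.51 ± 0.24 and 0.29 ± 0.16 in YFP-LRC minus LCC.

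Of 23 genes for collagen biosynthesis, P4hb, the subunit of prolyl 4-hydroxylase that is also protein disulfide isomerase, was called higher in YFP-LRC (0.88 ± 0.20, limma adjusted p = 0.0168) and Paneth (1.41 ± 0.20, adjusted p = 0.000207) than in LCC. Plod3, a lysyl hydroxylase, was called higher in Paneth than in LCC (0.55 ± 0.17, adjusted p = 0.0363). The medians of this list were -0.05 in YFP-LRC minus LCC and -0.10 in Paneth minus LCC. Of 14 other basement membrane genes, Smoc2, which is also a marker of crypt stem cells, was called higher in both (0.89 ± 0.22 and 0.78 ± 0.22), Papln lower in YFP-LRC than in LCC and Ntn1, a netrin, lower in Paneth than in LCC. Of 16 proteases and inhibitors, Mmp7, the matrilysin of Paneth cells that processes defensins, was called higher in both (1.02 ± 0.21 in YFP-LRC minus LCC and 1.82 ± 0.21 in Paneth minus LCC). In YFP-LRC against Paneth, limma called 0 genes of these 4 lists, with 1 of 20 receptors, 1 of 23 biosynthesis genes, 0 of 14 basement membrane genes and 2 of 16 proteases and inhibitors at an unadjusted p under 0.05.

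Leukocyte genes differed from LCC in both other populations. Rgs1, Srgn and Tyrobp were called lower in both YFP-LRC and Paneth than in LCC, while Ptprc of the same list was called higher in Paneth than in LCC. Rgs1 differed by the most (-2.89 ± 0.50 in YFP-LRC minus LCC, limma adjusted p = 0.00443, and -2.81 ± 0.50 in Paneth minus LCC, adjusted p = 0.00141). The median over 8 leukocyte genes was 5.70 to 6.34 on YFP-LRC, 5.75 to 6.43 on Paneth and 6.06 to 7.17 on LCC arrays. By limma 0 of 8 smooth muscle and pericyte genes were called in the 3 comparisons (2, 0 and 1 at an unadjusted p under 0.05), and their median was 5.81 to 6.25, 5.90 to 6.06 and 5.86 to 6.33. The defining fibroblast gene Pdgfra averaged 5.30 ± 0.11 on YFP-LRC, 5.35 ± 0.22 on Paneth and 5.70 ± 0.27 on LCC arrays and was not called. In Paneth minus LCC, 8 of 12 fibroblast genes (median -0.25) and 7 of 9 endothelial genes (-0.13) were negative. So were 6 of 8 smooth muscle and pericyte genes (-0.10) and 6 of 6 glia and neuron genes (-0.27). In YFP-LRC minus LCC the 4 medians were -0.08, -0.10, -0.08 and -0.16, with 7, 7, 6 and 5 negative. Medians over all genes were 0.03 in Paneth minus LCC and 0.04 in YFP-LRC minus LCC. By bin of level, from the lowest up, they were -0.16, -0.07, 0.13 and 0.40 in Paneth minus LCC. In YFP-LRC minus LCC they were -0.12, -0.03, 0.12 and 0.35. The lowest bin ended at a mean of 5.73. On every array, the medians of the smooth muscle and pericyte list and of the glia and neuron list lay above that level. The part of leukocytes and stromal cells in the members' shift was not tested.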

How the data were processed

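The arrays measured 3 sorted populations from each of 6 mice. Per the file headers, the authors made the deposited log2 values with Affymetrix Power Tools 1.12.0 by RMA (background correction, quantile normalization over all arrays, median polish), for core probe sets of mm9. The 2 deposited tables differed by at most 0. Of 229581 probe sets, 209279 with exactly 1 symbol in the platform table were used; 14190 of 16380 symbols were current and 2145 were renamed through RefSeq synonyms (GRCm38.p6), which gave 16358 genes. A gene's value was the median over its probe sets, with no filter on low values. Lamb1 stands in the table as Lamb1-1. Col26a1 and Col6a6 match only after renaming and are not counted.

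Differences were tested with limma 3.58.1 in R 4.3.3: 1 mean per population over 18 arrays, 2-sided tests and Benjamini-Hochberg adjustment over all genes, or over all probe sets, per comparison. The departure test was diffSplice on probe sets at or above the median, for genes with at least 3 of them. The fits were tested on simulated data. Members, gene lists and alternatives were chosen with earlier results of these data known. The text may name any member; full values are given for members called, for the 3 most positive and 3 most negative per comparison, for Col4a2 and Col15a1 and for classical members of each class, and other genes are named where called or defining.

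The design text says that each mouse gave all 3 populations, which pairs the arrays by mouse, although the 3 arrays of mouse 6 carry 2 litter labels. Deviations from the group means correlated at a median of 0.0563 between arrays of the same mouse (18 pairs, -0.114 to 0.406) and at -0.0117 between arrays of different mice (90 pairs). With the mouse as a replicate block, 2, 0 and 3 members were called in YFP-LRC against LCC, YFP-LRC against Paneth and Paneth against LCC, as without it. No scan date or RNA quality is given in the sources used here, so no batch could be fitted; the number of arrays, 6 per population, limits the precision. Promoter sequences are from RefSeq (34 of 45 members matched).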

Additional observations from a re-analysis of the deposited data

Results flagged for a closer look

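An array far from the other 5 of its population, by Dixon's criterion, was found in 6 of 135 groups of 6 arrays (45 members in 3 populations), where chance gives about 5% of groups. Of the 6, 2 are LCC array 5, with Col20a1 at 7.49 (the other 5 arrays at 8.18 to 8.48) and Lama4 at 4.78 (the others at 5.28 to 5.44). The other 4 are Paneth arrays of 4 different mice. Lamc1 was at 6.65 on Paneth 1 (the others at 6.95 to 7.08), Col5a3 at 6.80 on Paneth 2 (7.02 to 7.14), Col9a1 at 6.55 on Paneth 3 (6.11 to 6.25) and Col2a1 at 7.48 on Paneth 4 (7.12 to 7.25). None of the 6 genes was called as a gene in any comparison. Without Paneth 1, Lamc1 in Paneth minus LCC was 0.42 and was called by limma (adjusted p = 0.0471), as it was without LCC 4 (0.42, adjusted p = 0.0408).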

How the results depend on the processing

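No called difference reversed. Of 1597 values per comparison from up to 36 alternatives, calls were lost in 39 (YFP-LRC against LCC), 0 (YFP-LRC against Paneth) and 24 (Paneth against LCC), gained in 9, 4 and 42, and uncalled differences changed sign in 60, 175 and 38. The count of members called in YFP-LRC against LCC, 2 as reported, was 4 after a second quantile normalization and after centring, 1 among genes at or above the median gene and with the 2 populations alone, 0 with LCC 1 and 4 alone, with the spread of the array as a covariate and with the replicate block without mouse 6, and 0 to 3 without 1 array or 1 mouse. In YFP-LRC against Paneth, 0 as reported, it was 1 (Col15a1) by means over probe sets and with array weights, and 0 to 1 with arrays or mice left out. In Paneth against LCC, 3 as reported, it was 15 after quantile normalization or centring, 7 by means over probe sets, 6 over brighter probe sets, 1 with the replicate block without mouse 6, 0 with LCC 1 and 4 alone, and 0 to 6 with arrays or mice left out. The mouse as a replicate block changed no other call among the members. Members with a departing probe set numbered 3 and 5 with LCC 1 and 4 alone, against 22 and 26 with all LCC arrays, and 14 to 24, 2 to 3 and 18 to 27 without 1 mouse. Called probe sets of Col4a2 and Col15a1, 14 over the 3 comparisons, numbered 22 and 23 after quantile normalization and centring, 3 with LCC 1 and 4 alone and 6 to 17 without 1 mouse. Fewer LCC arrays also mean less power; the cause of the other changes was not tested. RMA values carry no detection call, so whether a low member is expressed at all is not known here.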
